A study of Mus musculus with 96 samples.

Results

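Gata1, Klf1, Tal1, Nfe2 and Hemgn, 5 nuclear regulators of red cell development, were described in spleen and blood of mice with collagen induced arthritis. They were chosen by name, and their probes were found through the array annotation, which gave 6 probes for the 5 genes among 16593 genes measured. Gata1 has 2 probes, and for each gene the brightest probe was used. RNA from the whole spleen and the whole blood of 48 male mice had been hybridised to 96 Illumina bead arrays, so that each mouse gave 1 spleen and 1 blood array. Wild type mice were of the strain C57BL/10.Q/rhd (BQ), and mutated mice were of the strain C57BL/10.Q/rhd.Ncf1m1J, which carries a germline mutation of Ncf1. Its product p47phox is the organising subunit of the NADPH oxidase NOX2, the source of the oxidative burst of phagocytes. All mice had been immunised, so there is no unimmunised baseline, and tissues were taken from different mice 15 or 44 days later. This gave 8 groups of tissue, genotype and day with 12 mice each, 6 from experiment I (Ambion kits, with lithium chloride precipitation of blood RNA) and 6 from experiment II (Qiagen kits, with stabilising solution or tubes). Globin transcripts were depleted from the RNA of all samples. The ages of the mice were not given in the sources used here.

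GATA1 is a zinc finger factor that binds GATA sites and is required for red cells and platelets, and it also acts in mast cells and eosinophils. TAL1 is a basic helix-loop-helix factor that binds next to GATA1 in a shared complex with LMO2 and LDB1. KLF1 binds CACCC boxes and switches on genes of haemoglobin, the red cell membrane and haem synthesis. NFE2 is the large subunit of a dimer with a small MAF protein, and in mice it is needed above all for platelet release from megakaryocytes. Hemogen, the product of Hemgn, is a nuclear protein of blood-forming cells and a known target of GATA1. The mouse spleen makes red cells throughout life, and this production expands under anaemia and inflammation, whereas circulating blood holds few nucleated red cell precursors but many platelets and reticulocytes that carry RNA. In whole tissue, a higher or lower level can mean a different share of cells of a type or a different amount of RNA per cell. These cannot be told apart.

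The start regions of the regulators are shown because GATA1, TAL1 and KLF1 act on each other's genes. RefSeq windows on the mouse build GRCm38.p6, from 250 bases before to 50 bases after a transcript start, were matched for 4 of the 5 genes, with 5 windows in all. In the sequences, read 5′ to 3′ on the strand of the gene, capitals mark 2 kinds of match, searched on both strands: AGATAA, or the same letters with T in place of the leading A, for a GATA site, and CCNCNCCC for a CACCC box. The Hemgn window lies at chr4:46404134-46404433 on the minus strand, Klf1 at chr8:84901732-84902031 on the plus strand, Tal1 at chr4:115056176-115056475 on the plus strand and Gata1 at chrX:7967861-7968160 on the minus strand.
Hemgn: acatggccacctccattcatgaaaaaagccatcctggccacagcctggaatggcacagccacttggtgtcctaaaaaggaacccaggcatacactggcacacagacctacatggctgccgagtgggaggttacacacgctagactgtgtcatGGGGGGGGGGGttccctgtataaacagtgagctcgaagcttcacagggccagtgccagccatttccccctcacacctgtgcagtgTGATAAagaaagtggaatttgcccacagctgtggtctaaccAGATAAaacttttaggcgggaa
Klf1: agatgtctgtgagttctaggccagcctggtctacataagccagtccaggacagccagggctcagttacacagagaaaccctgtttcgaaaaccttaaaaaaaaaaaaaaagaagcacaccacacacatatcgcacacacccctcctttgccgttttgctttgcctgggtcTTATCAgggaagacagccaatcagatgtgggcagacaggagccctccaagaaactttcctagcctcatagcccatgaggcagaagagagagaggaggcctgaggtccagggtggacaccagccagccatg
Tal1: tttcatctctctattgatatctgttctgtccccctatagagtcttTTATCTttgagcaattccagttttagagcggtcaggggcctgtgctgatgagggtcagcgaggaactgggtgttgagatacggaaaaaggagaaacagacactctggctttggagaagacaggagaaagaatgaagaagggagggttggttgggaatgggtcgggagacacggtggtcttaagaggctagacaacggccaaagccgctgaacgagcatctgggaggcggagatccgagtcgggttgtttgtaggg
Gata1: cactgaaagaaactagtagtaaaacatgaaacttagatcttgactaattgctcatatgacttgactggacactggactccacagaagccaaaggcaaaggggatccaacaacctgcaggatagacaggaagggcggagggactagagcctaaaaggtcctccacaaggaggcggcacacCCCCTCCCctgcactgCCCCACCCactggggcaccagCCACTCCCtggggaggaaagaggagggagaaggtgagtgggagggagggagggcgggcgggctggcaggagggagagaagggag

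The Hemgn window held 2 GATA matches, starting 13 bases before and 28 bases after the transcript start, and its 4 CACCC matches overlap within a single run of G. The Klf1 window held a GATA match 80 bases before the start, and the Tal1 window held a GATA match 205 bases before it. The Gata1 window held 3 CACCC matches, 71, 55 and 34 bases before the start, and no GATA match. A further Tal1 window at chr4:115057561-115057860 held 4 CACCC matches, some of which overlap. Of 32851 windows of this length in the RefSeq table, 18.6% held a GATA match and 49.5% a CACCC match. The letters CAGNTG, an E-box, were in 51.4% of the windows, and TGANTCA, a core of NFE2 sites, in 7.81% and in none of the 5 windows here. A match describes the letters only, and no binding was measured.

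All spleen arrays shared a median log2 intensity of 6.36, and all blood arrays a median of 6.20, since values had been scaled to a common distribution within each tissue. The number of arrays limits the precision. The mutated gene was checked first. Ncf1 ranged from 6.66 to 7.91 in wild type spleen and from 6.01 to 6.88 in mutated spleen. It was lower in mutated spleen by a log2 difference of -0.86 ± 0.06 (standard error, limma, adjusted p = 1.9e-14). In mutated blood it was lower by -0.55 ± 0.07 (adjusted p = 1.1e-06). Within experiment I alone the blood difference was -0.31 ± 0.09 and did not pass (adjusted p = 0.45). Within experiment II it was -0.78 ± 0.08 (adjusted p = 9.2e-07). Of the spleen arrays, 4 held exocrine pancreas transcripts, with a mean over 27 measured pancreas genes more than 1 log2 unit above the median spleen array. They were all from experiment I, 3 wild type and 1 mutated, 3 of day 15 and 1 of day 44. Results in spleen are given with and without them. In blood, the same list ranged from 6.10 to 8.72 in experiment I and from 6.18 to 6.28 in experiment II. Some blood arrays of experiment I also lay more than 1 log2 unit above the median blood array. The largest excess was 2.48 in wild type and 1.83 in mutated blood. Only spleen arrays were left out for pancreas transcripts, so all results in blood include these arrays. Comparisons of spleen with blood can include them too.

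In spleen all 5 regulators were higher in mutated than in wild type mice, from 1.51-fold for Gata1 and 1.97-fold for Nfe2 to 2.09-fold for Hemgn, with Klf1 and Tal1 between these. With all spleen arrays, all 5 passed at either day. Without the 4 arrays that held pancreas transcripts, none passed at day 15, and Klf1 and Hemgn did not pass at day 44. Fewer also passed at a single day within either experiment alone, and the second Gata1 probe did not pass. In blood no regulator passed the test between the genotypes. Each value below is a log2 intensity of the probe, and each difference ± its standard error (limma) is on the log2 scale.

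**Figure D1:**
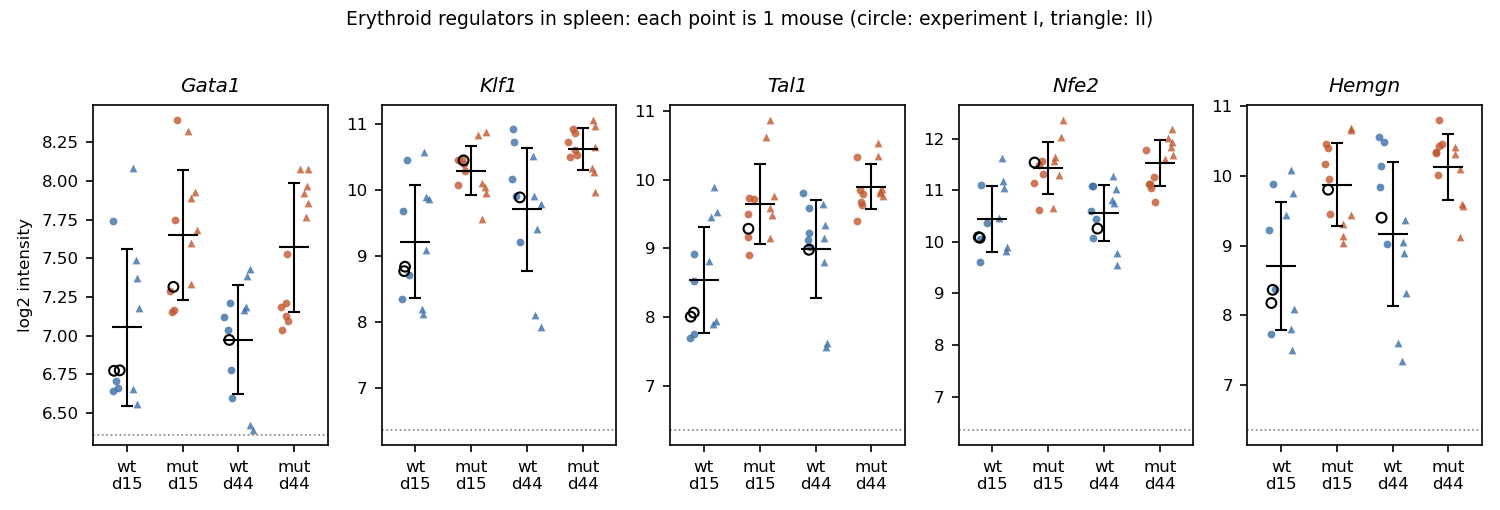
Log2 intensity of the 5 regulators in spleen, with 1 point per mouse by genotype (wt, wild type; mut, mutated) and day (d15, d44). Circles are experiment I, triangles experiment II, open black circles the 4 arrays with pancreas transcripts, bars the mean ± SD of 12 mice, and the dotted line the median of the array (6.36). Mutated groups lie higher for every gene, with some overlap between single mice.

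Klf1 in wild type spleen ranged from 8.12 to 10.6 at day 15 (median 8.96) and from 7.92 to 10.9 at day 44 (median 9.90). In mutated spleen it ranged from 9.56 to 10.9 at day 15 (median 10.3) and from 9.98 to 11.1 at day 44 (median 10.6). The groups overlapped because some wild type mice reached the level of mutated mice, while no mutated mouse fell into the lower part of the wild type range. The log2 difference over both days was 1.00 ± 0.19 (limma, adjusted p = 1.7e-04), a 1.99-fold higher level. All 24 mutated mice lay above the median of the wild type mice of their own day and experiment, and 6 of the 24 lay above the highest of those wild type mice.

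Tal1 in wild type spleen ranged from 7.70 to 9.90 at day 15 (median 8.29) and from 7.56 to 9.81 at day 44 (median 9.14). In mutated spleen it ranged from 8.90 to 10.9 at day 15 (median 9.54) and from 9.40 to 10.5 at day 44 (median 9.81). The difference over both days was 1.01 ± 0.17 (adjusted p = 4.1e-05), or 2.01-fold. Here 24 of 24 mutated mice lay above the wild type median of their day and experiment, and 15 above the highest wild type mouse.

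Hemgn ranged from 7.50 to 10.1 at day 15 (median 8.37) and from 7.35 to 10.6 at day 44 (median 9.21) in wild type spleen. In mutated spleen it ranged from 9.03 to 10.7 at day 15 (median 9.88) and from 9.13 to 10.8 at day 44 (median 10.3). The lowest wild type mice lay below every mutated mouse, and the highest were level with them. The difference over both days was 1.06 ± 0.21 (adjusted p = 2.5e-04), or 2.09-fold, and again 24 of 24 mutated mice lay above the wild type median of their day and experiment.

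Nfe2 had the most mutated mice above all wild type mice of their day and experiment. It ranged in wild type spleen from 9.61 to 11.6 at day 15 (median 10.2) and from 9.55 to 11.3 at day 44 (median 10.7). Mutated spleen ranged from 10.6 to 12.4 at day 15 (median 11.5) and from 10.8 to 12.2 at day 44 (median 11.6). The difference over both days was 0.98 ± 0.14 (adjusted p = 3.6e-06), or 1.97-fold. Of the 24 mutated mice, 23 lay above the wild type median of their day and experiment and 18 above the highest wild type mouse.

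The brightest Gata1 probe ranged from 6.56 to 8.08 at day 15 (median 6.77) and from 6.39 to 7.43 at day 44 (median 7.08) in wild type spleen. In mutated spleen it ranged from 7.15 to 8.39 (median 7.64) and from 7.04 to 8.08 (median 7.65). The difference over both days was 0.60 ± 0.11 (adjusted p = 1.1e-04), or 1.51-fold, with 24 of 24 mutated mice above the wild type median of their day and experiment. The second Gata1 probe had a mean of 6.36 in spleen, level with the array median, and its genotype difference of 0.07 ± 0.06 did not pass the test (adjusted p = 0.67).

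At day 15 alone all 5 regulators were called, among 320 genes higher in mutated spleen (1.93% of the genes tested), with differences from 0.60 for Gata1 to 1.17 for Hemgn and adjusted p from 0.0084 for Nfe2 to 0.026 for Gata1. At day 44 all 5 were called again, among 3.09% of genes, with differences from 0.60 for Gata1 to 0.97 for Nfe2 and adjusted p from 0.0017 for Nfe2 to 0.045 for Hemgn. Hemgn lay close to the threshold there and did not pass with array weights (adjusted p = 0.057), with a trended robust prior (0.051) or with every probe tested (0.0504). Over both days the 5 called stand beside 5.66% of all genes called higher and 4.88% called lower, and the median difference of all genes was -0.01. No regulator passed the test for a genotype difference that changed between the days, nor did any other gene in spleen (0% called by limma, 363 of 16593 at an unadjusted p under 0.05). Tested for a difference between the experiments, the genotype difference was called for 0 regulators and 0% of genes (475 at an unadjusted p under 0.05), over both days. It was not tested at a single day.

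Without the 4 arrays that held pancreas transcripts, the differences over both days were 0.60 for Gata1, 0.94 for Klf1, 0.98 for Tal1, 0.94 for Nfe2 and 1.00 for Hemgn, and all 5 passed (4.94% of genes called higher). The single days lost calls. At day 15 the differences were from 0.59 for Gata1 to 1.06 for Hemgn, none of the 5 passed (adjusted p from 0.059 for Nfe2 to 0.12 for Klf1), and the genes called higher fell to 0.133%. At day 44 Gata1, Tal1 and Nfe2 passed, while Klf1 (0.91, adjusted p = 0.051) and Hemgn (0.95, adjusted p = 0.066) did not, with 2.57% of genes called higher.

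Within experiment I the difference over both days was called for Klf1 (0.89), Tal1 (0.85), Nfe2 (0.82) and Hemgn (0.95) but not for Gata1 (0.44 ± 0.14, adjusted p = 0.083), where 2.25% of genes were called higher. When its 4 pancreas arrays were left out as well, only Tal1 passed (0.80 ± 0.17, adjusted p = 0.025, 0.663% of genes), with differences from 0.43 for Gata1 to 0.83 for Hemgn. Within experiment II all 5 were called, from 0.76 for Gata1 to 1.18 for Hemgn (4.37% of genes). At day 44 the differences in experiment I ran from 0.25 for Gata1 to 0.59 for Nfe2, and none was called (0.211% of genes). In experiment II they ran from 0.95 for Gata1 to 1.43 for Hemgn, and Gata1, Tal1 and Nfe2 were called (3.34% of genes). In experiment II at day 44, all 6 mutated mice lay above the highest of 6 wild type mice for Gata1, Tal1 and Nfe2, an arrangement that 2.39% of all genes also showed. At day 15 the differences in experiment I ran from 0.63 for Gata1 to 1.41 for Hemgn, and all but Gata1 were called (0.741% of genes). In experiment II they ran from 0.57 for Gata1 to 0.99 for Tal1, and none of the 5 was called, with 0% of genes called higher.

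**Figure D2:**
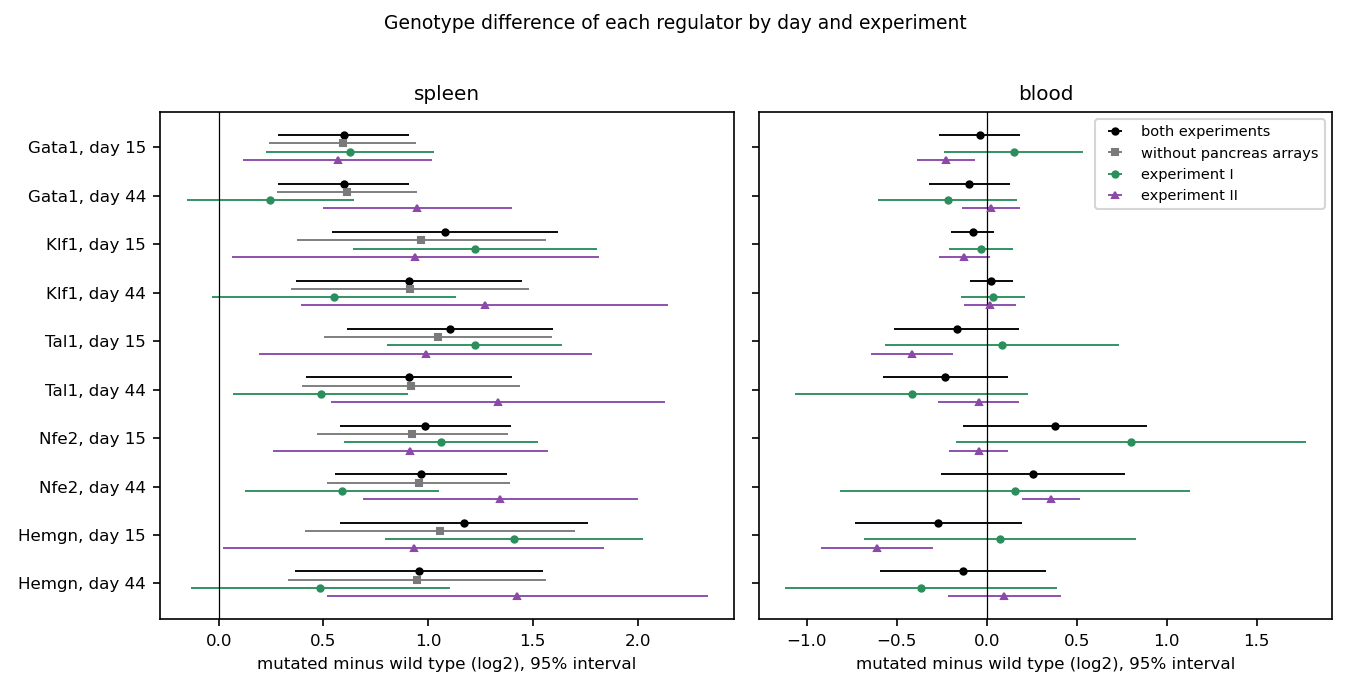
Difference of mutated minus wild type (log2) of each regulator at day 15 and day 44 in spleen and blood, with 95% intervals. Colours and symbols give both experiments together, spleen without the 4 pancreas arrays, and each experiment alone. All spleen points lie above 0, with some intervals of experiment I at day 44 reaching below it, and the blood differences lie on either side of 0.

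The order of the 4 spleen groups was wild type day 15, wild type day 44, mutated day 15, mutated day 44 for Klf1, Tal1, Nfe2 and Hemgn. For Gata1 the days stood the other way round within each genotype. The step from the upper wild type group to the lower mutated group was larger than the larger SD of the pair for Nfe2 (0.87, SD 0.55) and Gata1 (0.52, SD 0.51). It was within that SD for Klf1 (0.58, SD 0.94), Tal1 (0.66, SD 0.71) and Hemgn (0.70, SD 1.03). All steps between the days of a genotype were within the SD.

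No regulator passed the test between the days in spleen when both experiments were fitted together, although 22.9% of all genes were called. The differences of day 44 minus day 15 were 0.41 for Klf1, 0.36 for Hemgn and 0.35 for Tal1, with the lowest adjusted p at 0.11. Some alternative fits of both experiments, given below, called a regulator. In experiment I alone, Hemgn (0.82 ± 0.21, adjusted p = 0.0053), Klf1 (0.67 ± 0.20, adjusted p = 0.013) and Tal1 (0.76 ± 0.14, adjusted p = 7.9e-04) were higher at day 44 than at day 15, where 14.8% of genes were called higher. In experiment II the same differences were -0.10, 0.15 and -0.06. The test of that disparity between experiments did not pass for Tal1 (-0.82 ± 0.32, adjusted p = 0.075) or Hemgn (-0.92 ± 0.39, adjusted p = 0.11), where 14.8% of genes passed it. In experiment I, 3 of the 4 pancreas arrays were of day 15, and without them Tal1 and Hemgn were still called there (6.46% of genes higher) and Klf1 was not (0.62, adjusted p = 0.075).

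In blood Klf1 was nearly flat, between 6.23 and 6.87 over all 48 arrays, close to the array median of 6.20. No detection calls were used here, so this Klf1 probe may lie near background in blood, and its values there are as measured. Hemgn ranged from 6.81 to 9.38 and Gata1 from 6.24 to 7.48. Tal1 ranged from 5.91 to 8.59 and Nfe2 from 8.37 to 12.2.

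Between the genotypes in blood, 0 of 5 regulators passed limma's test at day 15 (0.145% of genes called), at day 44 (1.43%) or over both days (1.13%). Over both days the differences were -0.07 ± 0.08 for Gata1, -0.03 ± 0.04 for Klf1, -0.20 ± 0.12 for Tal1, 0.32 ± 0.18 for Nfe2 and -0.20 ± 0.16 for Hemgn. In the wild type groups at day 15 and day 44 the means were 7.23 ± 1.01 and 7.30 ± 0.86 (SD, n = 12) for Tal1 and 10.53 ± 1.54 and 10.95 ± 1.14 for Nfe2. In the mutated groups they were 7.07 ± 0.81 and 7.07 ± 0.87 for Tal1 and 10.9 ± 1.13 and 11.2 ± 0.95 for Nfe2. Every step between neighbouring blood groups was within the larger SD, for all 5 genes. Between the days 0 of 5 passed (0.0783% of genes called). The test for a genotype difference that changed between the days called 0 of 5 (0.00603%). These fits average the experiments. The day difference in experiment II minus that in experiment I was -0.98 ± 0.29 for Hemgn and -0.74 ± 0.34 for Nfe2. It was -0.38 ± 0.14 for Gata1, -0.29 ± 0.24 for Tal1 and -0.22 ± 0.08 for Klf1, and none passed limma's test.

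**Figure D3:**
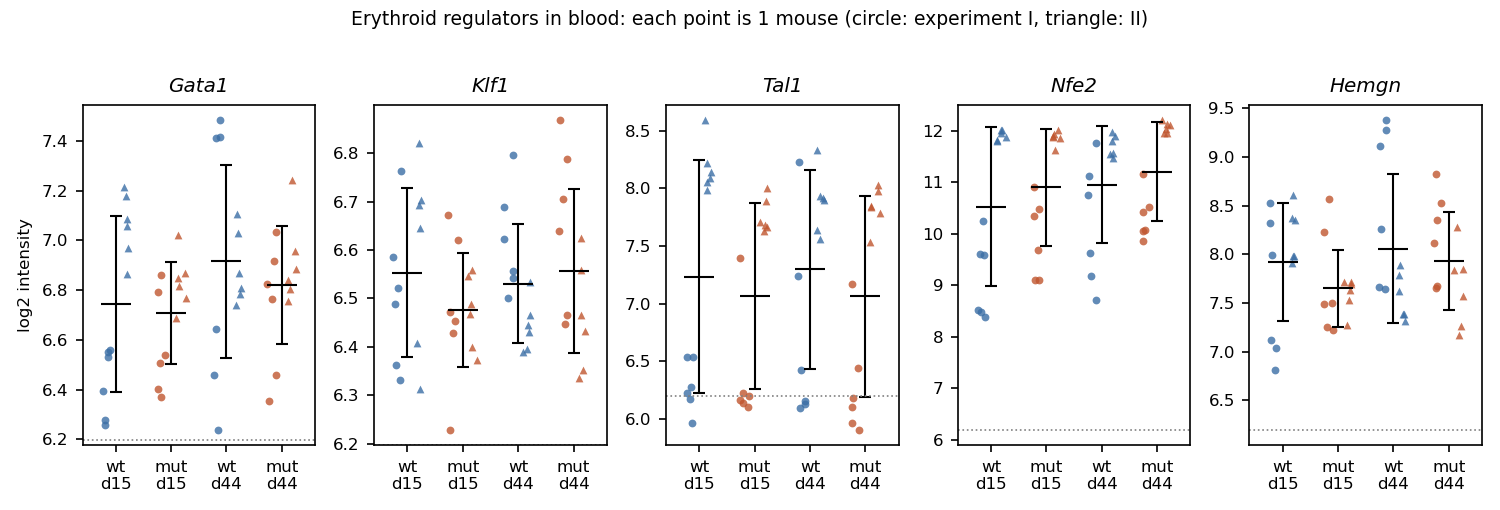
Log2 intensity of the 5 regulators in blood, with 1 point per mouse by genotype and day. Circles are experiment I, triangles experiment II, bars the mean ± SD of 12 mice, and the dotted line the median of the array (6.20). Tal1 and Nfe2 are higher in experiment II, with some overlap between the experiments, and the genotype groups overlap for all 5 genes.

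Tal1 and Nfe2 in blood were higher in experiment II. Tal1 ranged from 5.91 to 8.23 in experiment I (median 6.19) and from 7.53 to 8.59 in experiment II (median 7.91). Its difference of 1.50 ± 0.12 (adjusted p = 1.2e-14) was 2.82-fold, and 2 of 24 mice of experiment II lay above the highest of experiment I. Nfe2 ranged from 8.37 to 11.8 in experiment I (median 9.95) and from 11.5 to 12.2 in experiment II (median 11.9), and here 20 of 24 did. Its difference of 1.99 ± 0.18 (adjusted p = 2.8e-13) was 3.96-fold. Gata1 was also higher in experiment II, by 0.26 ± 0.08 (adjusted p = 0.0042), so that 3 of 5 were called higher where 36.2% of all genes were. Klf1 (-0.07 ± 0.04) and Hemgn (-0.27 ± 0.16) did not pass. Genes of megakaryocytes and platelets moved in the same direction as Tal1 and Nfe2, and 14 of 16 were higher in experiment II with a median difference of 2.15, among them Itga2b, an integrin subunit of platelets (3.39 ± 0.35), and Pf4, a platelet chemokine (2.48 ± 0.28). Of 12 markers of B and T cells, 10 were higher as well (median 0.73). Target genes of GATA1 and KLF1 had a median difference of -0.36, with genes called in both directions. The median of all genes was 0.01. The kits for collection and isolation of blood RNA differed between the experiments, and their part in these differences was not tested. In spleen 3 of 5 regulators differed between the experiments, where 55.1% of all genes did: Gata1 (0.35 ± 0.11) and Nfe2 (0.35 ± 0.14) were higher in experiment II and Hemgn was lower (-0.55 ± 0.21).

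Blood values of experiment II were tighter, with an SD over 24 mice of 0.19 for Nfe2 against 0.92 in experiment I. There 2 regulators passed between the genotypes at day 15 and 1 at day 44. Hemgn was lower in mutated blood at day 15 by -0.61 ± 0.15 (adjusted p = 0.027), and all 6 mutated mice, of which the highest was 7.71, lay below the lowest of 6 wild type mice at 7.91. Of all genes, 1.05% showed such a gap. Tal1 was lower at the same day by -0.42 ± 0.11 (adjusted p = 0.038), where 2.68% of genes were called in either direction. Nfe2 was higher in mutated blood at day 44 by 0.36 ± 0.08 (adjusted p = 0.0063), with 4 of 6 mutated mice above the highest wild type mouse, where 5.56% of genes were called. The corresponding differences in experiment I were 0.08 ± 0.36 for Hemgn, 0.08 ± 0.31 for Tal1 and 0.16 ± 0.47 for Nfe2. The genotype by experiment test, which averages the days, called 0 of 5 (0.0121% of genes called by limma). The disparity between the experiments at a single day was not tested.

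Spleen and blood of each mouse were then compared. The tissues had been scaled separately, so a level set across them carries that choice. On the measured scale Klf1 was higher in spleen by 3.43 ± 0.09, a size that rests on a blood signal near the array median and is given with no fold. Tal1 was higher in spleen by 2.10 ± 0.10, Hemgn by 1.58 ± 0.11 and Gata1 by 0.52 ± 0.06. These 4 of 5 stand beside 62.9% of all genes called higher in spleen. Nfe2 differed by 0.09 ± 0.10 and did not pass (adjusted p = 0.41). By experiment, Nfe2 was higher in spleen in experiment I (0.91 ± 0.16, adjusted p = 2.0e-05) and lower in experiment II (-0.72 ± 0.12, adjusted p = 3.9e-06).

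The genotype difference itself was larger in spleen than in blood for 4 regulators, where 2.87% of all genes passed that test in this direction. The differences of differences were 1.21 ± 0.20 for Tal1 (adjusted p = 1.5e-04), 1.26 ± 0.22 for Hemgn (adjusted p = 1.7e-04), 1.02 ± 0.18 for Klf1 (adjusted p = 2.0e-04) and 0.66 ± 0.12 for Gata1 (adjusted p = 4.4e-04). For Nfe2 it was 0.66 ± 0.21 and did not pass (adjusted p = 0.062), but it passed without the pancreas arrays (0.74, adjusted p = 0.041). In experiment I alone none of the 5 passed, with a lowest adjusted p of 0.059, where 0.163% of genes were called higher. Klf1 in blood lay near the array median. For Klf1 this test therefore cannot tell a smaller genotype difference in blood from a signal too low to show one.

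Genes around the regulators were followed by role, in lists chosen with earlier results of these data known. Counts in spleen stand beside the 5.66% of all genes called higher and 4.88% called lower. Of 33 measured target genes of GATA1 and KLF1, 25 were higher and none lower in mutated spleen over both days, with a median difference of 0.64 beside -0.01 for all genes. They included Ank1, the ankyrin that ties the membrane of red cells to its skeleton (1.13 ± 0.20), Kel, the Kell blood group protein (1.10 ± 0.20), Tfrc, the transferrin receptor for iron uptake (0.95 ± 0.17), and Ppox, a haem synthesis enzyme (0.68 ± 0.12). The mean of the list ranged from 8.63 to 10.2 in wild type and from 9.38 to 10.4 in mutated spleen. In blood 0 of the 33 were called between the genotypes, with a median of 0.01. The genotype difference was larger in spleen than in blood for 18 of the 33, beside 2.87% of all genes. Of 6 globin genes none was called in spleen or in blood, after globin depletion.

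Of 16 partners in the complexes of GATA1 and TAL1, 4 were higher in mutated spleen and none lower, with a median of 0.07. Gfi1b, a repressor that acts with GATA1 in red cells and megakaryocytes, rose by 0.91 ± 0.16 (adjusted p = 4.3e-05), and Zfpm1, the cofactor of GATA1 called FOG1, by 0.73 ± 0.15 (adjusted p = 3.0e-04). Lmo2, which bridges TAL1 and GATA1, was higher by 0.24 ± 0.06, and Mafg, a small MAF partner of NFE2, by 0.31 ± 0.10. Mafg was no longer called without the pancreas arrays (0.28, adjusted p = 0.093). Ldb1, the adaptor of the TAL1 complex (-0.05), and Kdm1a, a histone demethylase (0.01), did not pass.

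Factors that oppose the red cell programme or act in earlier progenitors did not move together, with 3 of 15 higher and 2 lower and a median of -0.01. Lmo2 stands in this list as well as among the partners above, and is counted as higher in both. Cebpe, a factor of late granulocytes, was higher by 1.33 ± 0.15 (adjusted p = 1.5e-08). Fli1, which counters KLF1 in the choice between megakaryocytes and red cells, was lower by -0.36 ± 0.06, as was Hhex, a homeobox factor of progenitors and B cells (-0.36 ± 0.06). Among 20 other factors of red cell development, 3 were higher and 2 lower, with a median of 0.03. E2f2, a cell cycle factor of red cell precursors, was higher by 0.56 ± 0.11 and Rb1, the retinoblastoma gene, by 0.35 ± 0.10. Trim58, a ubiquitin ligase of late red cell precursors, was higher by 0.13 ± 0.04, whereas Trp53inp1, a p53 target, and Nfe2l1, a relative of Nfe2, were lower by -0.17 ± 0.05 and -0.16 ± 0.05. Without the pancreas arrays only E2f2 and Rb1 of these were called.

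Of 17 genes of erythropoietin and stress signalling, 3 were higher and 2 lower in mutated spleen, with a median of 0.00. Epor, the erythropoietin receptor, was higher by 0.64 ± 0.14, Erfe, the iron hormone that red cell precursors make, by 0.41 ± 0.07, and Pim1, a kinase induced by cytokine receptors, by 0.25 ± 0.06. Epor is also counted among the target genes above. Bmp4, a signal for stress red cell progenitors of the mouse spleen, was lower by -0.41 ± 0.08, and Socs2, a feedback inhibitor, by -0.21 ± 0.06. In blood 1 of the 17 was called, beside 1.13% of all genes, Socs3, another feedback inhibitor (0.65 ± 0.12, adjusted p = 7.3e-04).

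**Figure D4:**
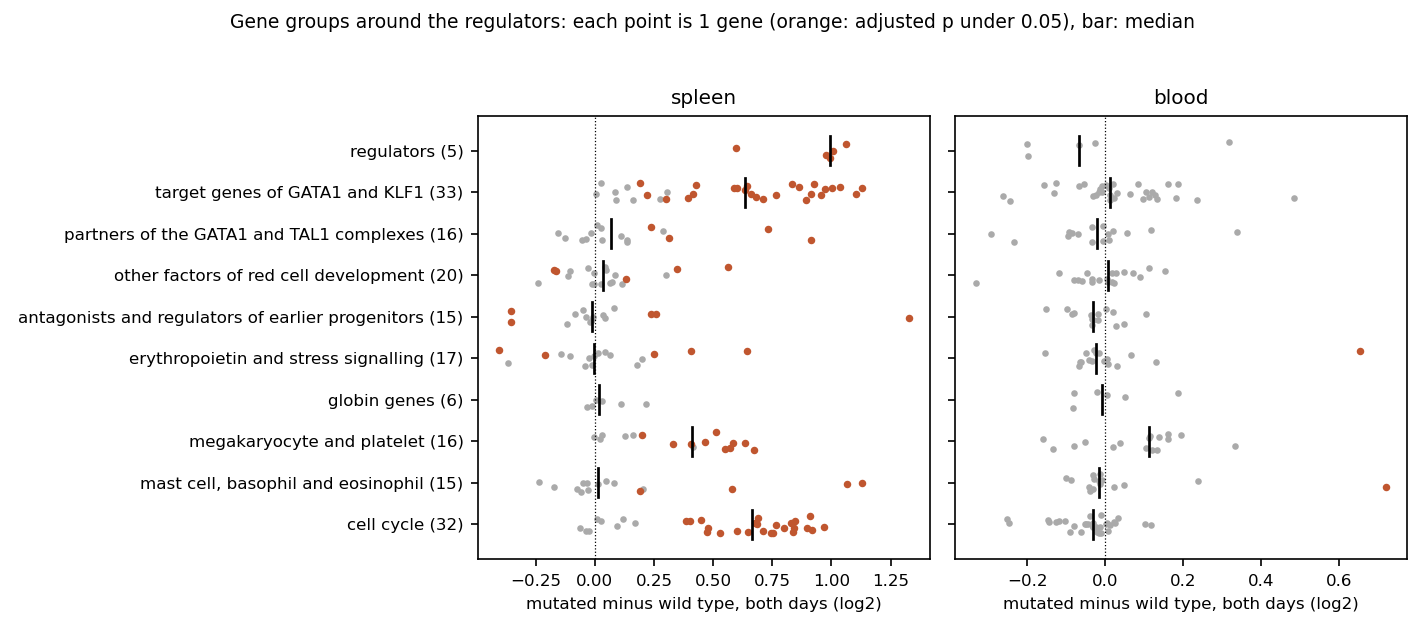
Difference of mutated minus wild type over both days (log2) of each gene in the lists, in spleen and blood. Orange points passed limma's test over all genes, grey points did not, the black bar is the median of the list, and the number in brackets is the count of genes measured. In spleen the regulators, target genes, platelet genes and cell cycle genes lie mostly to the right of 0, and in blood nearly all points are grey.

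Markers of other cell types moved in the same spleens. Of 32 cell cycle genes 24 were higher (median 0.66), with Kif2c, a mitotic kinesin, at 0.75 ± 0.10 and Bub1b, a checkpoint kinase, at 0.53 ± 0.07. Of 16 megakaryocyte and platelet genes 10 were higher (median 0.41), with Vwf, the von Willebrand factor, at 0.57 ± 0.08 and Treml1, a platelet receptor, at 0.64 ± 0.11. Of 15 genes of mast cells, basophils and eosinophils, in which GATA1 also acts, 4 were higher (median 0.02), led by Prg2, the eosinophil major basic protein (1.13 ± 0.14), and Hdc, the enzyme that makes histamine (1.07 ± 0.14).

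Of 15 neutrophil genes 13 were higher (median 1.36), with Mpo at 1.79 ± 0.19, and the list mean ranged from 8.74 to 10.5 in wild type and from 9.49 to 11.6 in mutated spleen. Of 12 markers of spleen B and T cells 10 were lower (median -0.45), with Cd8b1 at -0.93 ± 0.10, and the list mean ranged from 8.89 to 9.76 in wild type and from 8.51 to 9.57 in mutated spleen. None of the 27 pancreas genes was called (median -0.51). Without the pancreas arrays the counts were 23 of 33 for the target genes, 10 of 16 for platelet genes, 13 of 15 for neutrophil genes and 10 of 12 for B and T cell markers. In blood 8 of 15 neutrophil genes were higher in mutated mice (median 0.85), with Lcn2, lipocalin 2, at 2.05 ± 0.26, while 0 of 16 platelet genes were called. The part of these cell types in the differences of the regulators was not tested.

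The regulators also varied together between mice of the same group. After the mean of each group and experiment was removed, the 10 pairs of regulators in spleen had Pearson r from 0.77 (Gata1 and Hemgn) to 0.91 (Tal1 and Hemgn) over 48 mice, and Spearman rho from 0.72 to 0.89. All 10 passed a two-sided permutation test (100000 resamples of mice within group and experiment, Benjamini-Hochberg over 45 relations), each at a p of 1e-05, the smallest these resamples can give. Without the 2 mice farthest from the median of the gene on the x axis, r was 0.77 to 0.90. Within experiment I it was 0.61 to 0.89, and within experiment II 0.81 to 0.96. Between wild type mice r was 0.87 to 0.97 and between mutated mice 0.46 to 0.85.

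In spleen each regulator followed the mean of the target genes, with r from 0.84 for Gata1 to 0.95 for Klf1, and had r with the mean of the platelet genes from 0.26 for Gata1 to 0.50 for Hemgn. The difference between these correlations was not tested. With the platelet genes, neither Gata1 (adjusted p = 0.095) nor Nfe2 (r = 0.31, adjusted p = 0.052) passed.

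In blood 8 of the 10 pairs passed, from r = 0.34 (Klf1 and Hemgn, adjusted p = 0.043) to r = 0.80 (Nfe2 and Hemgn). Klf1 did not follow Tal1 (r = 0.10, rho = 0.08, adjusted p = 0.57) or Nfe2 (r = 0.15, rho = 0.22, adjusted p = 0.36). Tal1 and Nfe2 followed the mean of the platelet genes (r = 0.84 and 0.87, rho = 0.75 for both), also within experiment I (0.87 for both) and within experiment II (0.78 and 0.63). Hemgn followed the mean of the red cell target genes (r = 0.85, rho = 0.86), within experiment I at 0.92 and within experiment II at 0.66. The lists did not separate these genes, since other relations passed the permutation test as well. Hemgn had r = 0.52 with the platelet genes (adjusted p = 0.016), and Nfe2 had r = 0.63 with the target genes (adjusted p = 9.3e-04). Gata1 passed with both, at r = 0.72 with the target genes and r = 0.65 with the platelet genes. Klf1 had r = 0.54 with the target genes (adjusted p = 5.4e-04) and r = 0.05 with the platelet genes (adjusted p = 0.73), and Tal1 had r = 0.24 with the target genes (adjusted p = 0.29).

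**Figure D5:**
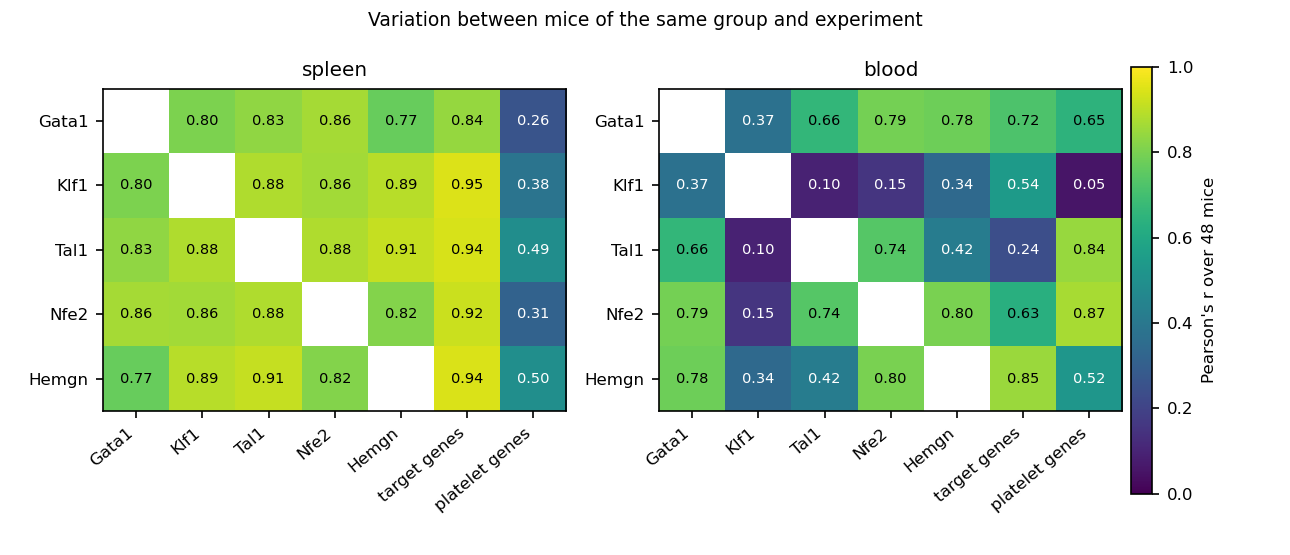
Pearson's r between regulators, and of each regulator with the mean of the red cell target genes and of the platelet genes, over 48 mice after the mean of each group and experiment was removed. The spleen pairs lie between 0.77 and 0.91. In blood Tal1 and Nfe2 have 0.84 and 0.87 with the platelet genes, and Hemgn has 0.85 with the target genes. Hemgn also has 0.52 with the platelet genes, Nfe2 has 0.63 with the target genes, and Gata1 has 0.65 and 0.72.

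Spleen and blood of the same mouse were compared in the same way. For the same gene r was from -0.05 for Tal1 to 0.33 for Klf1 over 48 mice, and only Klf1 passed by r (adjusted p = 0.043) but not by rho (0.30, adjusted p = 0.059).

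The genes most like each regulator over the 48 spleen arrays, after the experiment means were removed, were named as a description, since genotype differences enter these values. Tfr2, the second transferrin receptor, was closest to Gata1 (r = 0.94), followed by Tspo2, Tspan33, Chaf1a and Blm. Dmtn, a membrane skeleton protein of red cells, was closest to Klf1 (r = 0.97), followed by Ubac1, Kel, Fn3k and Ackr1. Abcb10, a mitochondrial transporter of red cell precursors, was closest to Tal1 (r = 0.98), followed by Pip5k1b, Pbk, Fn3k and Ermap. Tspan33 was closest to Nfe2 (r = 0.96), followed by Pcyt1b, Kif18b, Gfi1b and Spire1. Pip5k1b was closest to Hemgn (r = 0.97), followed by Abcb10, Pbk, Trim10 and Uros. In blood the same neighbours ran from r = -0.57 for Tfr2 with Gata1 to 0.84 for Pip5k1b with Hemgn. In spleen the other regulators ranked among all genes from place 6 (Tal1 for Hemgn) to place 256 (Gata1 for Hemgn).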

How the data were processed

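The authors deposited probe intensity values on a linear scale for 25697 probes, and limma is the only tool that the submitters' processing notes name, with no version. Log2 values had been assumed, so log2 was taken first. Per the file's values, the arrays had been quantile normalised within each tissue over both experiments. Background treatment is not given in the sources used here. Of the probes, 23978 carried 1 gene symbol, 1719 had no gene named here, and the brightest probe of each gene was kept. Per tissue, limma 3.58.1 (lmFit and eBayes, R 4.3.3) was fitted on 4 groups of genotype and day with the experiment as a term, and tissues were compared on the spleen minus blood difference of each mouse. A gene was called where its p, adjusted by Benjamini-Hochberg across 16593 genes, was under 0.05. Alternatives covered the experiment term, each experiment alone, array weights, a trended prior and the mouse as a block. They also covered a level filter, the other Gata1 probe and spleen arrays with pancreas transcripts. Fits and correlations were tested on simulated data.

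The members, the 13 gene lists (255 symbols, 225 measured) and the tests were chosen with earlier results of these data known. Named genes were all regulators, up to 4 called genes per list with the smallest adjusted p in spleen (3 in blood), list genes called against their list, and the 5 genes most correlated with each regulator. Itga2b, Pf4, Ldb1 and Kdm1a are list members chosen after their values were seen. Whether labels of a mouse pair its tissues was checked: the deviations of spleen and blood of a mouse from their group means correlated at -0.38 to 0.31 (median 0.08). The consensus correlation of spleen and blood of a mouse was 0.016. Mismatched mice were not compared, so these values cannot decide the question, and the pairing rests on the labels.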

Additional observations from a re-analysis of the deposited data

Results flagged for a closer look

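The genotype difference of 4 regulators differed between spleen and blood of the same mice. Mutated minus wild type, averaged over the days, was larger in spleen than in blood by 1.26 for Hemgn, 1.21 for Tal1, 1.02 for Klf1 and 0.66 for Gata1 (log2). In blood the genotype difference of none of the 4 passed the test, with values from -0.20 to -0.03. Klf1 in blood lay near the array median, so its value there cannot show whether a genotype difference was absent.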

How the results depend on the processing

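Over both days in spleen all 5 regulators kept direction and call under every alternative except experiment I alone (4 called, without Gata1), experiment I without its pancreas arrays (1 called) and the second Gata1 probe. At day 15 in spleen the count of 5 fell to 3 without an experiment term and with only the compared groups, and to 0 in experiment II alone, without the pancreas arrays and in experiment I without them. At day 44 it fell to 3 without an experiment term, in experiment II alone and without the pancreas arrays, and to 0 in experiment I alone, with or without those arrays. It fell to 4, without Hemgn, with array weights, with a trended robust prior and with every probe tested. Between the days in spleen, 0 became 3 in experiment I alone, 2 there without the pancreas arrays, and 1 with array weights. With the mouse as a replicate block in 1 fit of all arrays it also became 1 (Klf1, adjusted p = 0.023), and this block changed the count of regulators in no other comparison. The day by experiment count rose from 0 to 1 in spleen among genes above the median level and in blood with array weights. In blood the genotype counts of 0 became 2 at day 15 and 1 at day 44 in experiment II alone. There 2.68% and 5.56% of all genes were called. The genotype by day count in blood became 1 in experiment II alone. For this count, and for the day by experiment counts of 1, the share of all genes is not given here. They are therefore not read as results about the regulators. The count of 4 for a larger genotype difference in spleen than in blood fell to 0 in experiment I alone, with or without the pancreas arrays.

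Some signs turned between the experiments or probes, all of values that had not passed except spleen minus blood for Gata1. In experiment II alone the spleen day difference was -0.10 for Hemgn and -0.062 for Tal1, and the blood genotype difference was -0.045 for Nfe2 at day 15, and 0.026 for Gata1 and 0.10 for Hemgn at day 44. In experiment I alone the blood genotype difference at day 15 was 0.15 for Gata1, 0.075 for Hemgn and 0.084 for Tal1, and over both days 0.0020 for Klf1. The second Gata1 probe gave 0.029 for the spleen day difference and -0.0048 for spleen minus blood. Nfe2 was lower in spleen than in blood in experiment II (-0.72), where r between the tissues was -0.11. Causes were not tested. Genes called in all went from 410 to between 2 and 244 at day 15 in spleen where they moved by over 1.5 times, from 861 to 4, 52 and 427 at day 44, from 1748 to 171, 581 and 1067 over both days, and in blood over both days from 188 to between 18 and 677. Experiment I without its pancreas arrays, the day by experiment test and the correlations with list means were chosen after seeing the data. Of the correlations that had passed, 113 values still passed under the alternatives and 11 did not. Probes near the array median, such as Klf1 in blood and the second Gata1 probe, may lie near background, which was not measured here.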

Other observations

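Wild type spleens spread more widely than mutated spleens in all 5 regulators. With the mean of each day and experiment removed, Klf1 had an SD of 0.88 over 24 wild type mice against 0.36 over 24 mutated mice, a ratio of 2.46 that lay at the 99.7th percentile of all genes. The ratio was 1.67 for Hemgn, 1.55 for Tal1, 1.50 for Nfe2 and 1.40 for Gata1, beside a median of 0.95 for all genes. Without the 4 pancreas arrays the ratio of Klf1 was 2.57. In blood the ratio was 1.60 for Nfe2, 1.54 for Gata1, 1.35 for Hemgn and 1.31 for Tal1. The median of all genes there was 1.03. Klf1 had 1.03 as well, from a probe that may lie near background in blood. These ratios are values chosen after seeing the data and were not tested.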
